A study of Drosophila melanogaster with 8 samples.

Results

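The genes described here were the translation initiation factors, elongation factors and aminoacyl-tRNA synthetases of the Drosophila melanogaster wing disc. They were taken by name: every row of the deposited count table whose gene symbol began with eIF, Aats-, Ef1 or Ef2, with upper and lower case kept, which gave 53 of 14300 rows. Of these 53 members, 49 passed the filter on low counts and were tested. The 4 others, eIF4E-3, eIF4E-4, eIF4E-5 and eIF4E-7, had 0 to 4 counts per library. Genes go by the symbol in the table, and a newer name from the BDGP6 annotation follows in parentheses where it helps.

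The table came from sequencing of polyadenylated RNA of mesothoracic wing discs, the larval tissue that gives rise to the wing and part of the thorax, dissected from male larvae of the third instar. The control group was the laboratory line yw67, with 3 libraries, and the mutant group carried the null allele MH107 of Myb in that background after outcrossing, with 5 libraries. Myb is a DNA-binding transcription factor of the dREAM complex and is known for its role at genes of mitosis. The comparison addressed which genes depend on it in this dividing tissue. The MH107 allele is a deletion that takes out the 5′ end of Myb and also its neighbour AlkB, mutant males were picked by the lack of a GFP-marked balancer chromosome, and the mutants die before adulthood. The labels disagreed on replication: the protocol spoke of 3 and 5 biological replicates, whereas the description of each sample counted the 3 control libraries as technical repeats of a single biological sample, put mutant library 1 in another, and put mutant libraries 2 to 5 together in a further one. The p-values below therefore measure the spread between libraries, which may be technical.

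Protein synthesis starts when the eIF4 group binds the cap of an mRNA and unwinds its leader, while eIF2 brings the initiator tRNA to the small ribosomal subunit, eIF3 holds the assembly together and eIF2B recharges eIF2 with GTP. Elongation factors then deliver each charged tRNA (eEF1A) and move the ribosome along (eEF2). Aminoacyl-tRNA synthetases load each tRNA with its amino acid, and mitochondria use a nuclear-encoded set of their own. These genes are expressed in nearly every cell, and in growing tissue such as the wing disc their products are among the abundant proteins.

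Library totals ran from 50562199 to 65322440 counts. Levels are counts per 1000000 (CPM) after TMM scaling, listed in the order of control libraries 1 to 3 and then mutant libraries 1 to 5, and changes are log2 of Myb mutant over control. Myb itself averaged 301 CPM in the control (SD 4.94, n = 3) and 5.79 CPM in the mutant (SD 1.13, n = 5). AlkB, which the MH107 deletion also takes out, had no counts in the mutant. All 9 wing disc markers were above 1 CPM on average, with a summed level of 1299 to 1630 CPM in the control and 1544 to 1595 CPM in the mutant. Control library 2 stood apart from the other control libraries. For members whose call changed when it was left out, and for some other genes, the result without it is given as well. The 6 hemocyte (blood cell) markers were all called lower, with a summed level of 173 to 244 CPM in the control and 5.77 to 19.9 CPM in the mutant, and none of them was at 0 in every mutant library. Fat body markers ranged widely between libraries of both genotypes (62.1 to 3535 CPM against 351 to 3607 CPM), as did salivary gland markers (3.20 to 12.7 CPM against 0.612 to 126 CPM). Of 8 testis markers, 2 had no counts in any library and 2 were above 1 CPM on average. The part of these other cell types in the results below was not tested, and in bulk tissue fewer cells of a type cannot be told apart from less RNA per cell.

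Most translation factor and synthetase genes differed little between the genotypes. By edgeR's quasi-likelihood test with an adjusted p under 0.05, 12 of the 49 tested members were called (24.5%), where 34.4% of all 9076 tested genes were. The 3 called higher (6.12%, beside 16.9% of all genes) were Ef1alpha100E, eIF6 and Aats-ser, and the 9 called lower (18.4%, beside 17.5%) were 7 synthetases, the RNA helicase eIF4AIII and the initiation factor eIF-1A. Ef1alpha100E was the only one of the 12 past a log2 change of 0.5 in either direction. The members had a median log2 change of -0.055, where all tested genes had 0.011, and a median absolute log2 change of 0.10 beside 0.18. For 47 of the 49 (95.9%) the 95% interval of the change lay within 1.5-fold in both directions, as it did for 6195 (68.3%) of all tested genes. The SE ran from 0.029 to 0.31 over the members and from 0.027 to 4.52 over all tested genes, which were not matched to the members for level. In 18 members (36.7%) no control library overlapped a mutant library, a share close to the 38.9% of all tested genes. Together the members took 4.90% to 5.695% of the counts of a control library and 5.22% to 5.53% of a mutant library, and these ranges overlapped. As a scale for the counts below, 2025 of all 9076 tested genes were higher and 2057 lower at an unadjusted p under 0.05. DESeq2 was run without that filter and covered 12526 genes, of which it called 1772 higher and 1720 lower.

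**Figure D1:**
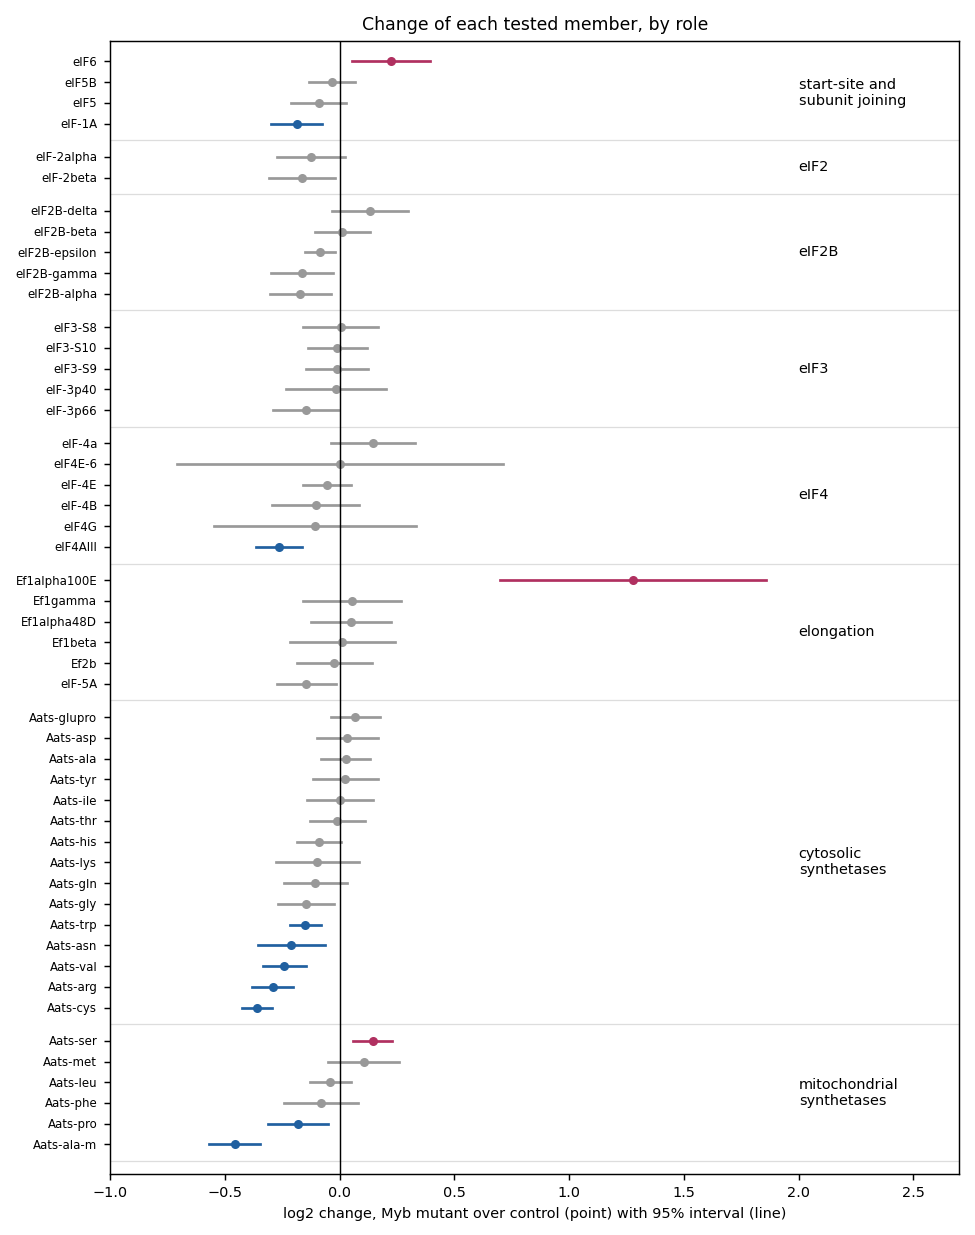
Log2 change of Myb mutant over control for each of the 49 tested members, grouped by role (points, with lines for the 95% interval; red called higher, blue called lower, grey not called). Most points lie close to 0, Ef1alpha100E stands alone at 1.28, and the blue points are mostly synthetases.

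The 4 members of the first class covered start-site selection and the joining of the subunits. eIF6, which binds the large ribosomal subunit and keeps it from joining the small subunit too early, measured 160.0, 193 and 152 CPM across the controls and 195, 200.02, 189, 201 and 197 CPM across the mutants. The mutant libraries were close together and above control libraries 1 and 3, but control library 2 lay within their range, so the genotypes overlapped. The means were 168 CPM (SD 21.7, n = 3) against 197 CPM (SD 4.496, n = 5), a log2 change of 0.22 ± 0.074 SE, adjusted p = 0.0444. This call sat at the edge of the threshold: it was lost without any one of the mutant libraries (adjusted p = 0.0648 to 0.115), without control library 1 (0.139) and without control library 3 (0.124), and without control library 2 the change was 0.33 with an adjusted p of 3.4e-04. eIF-1A (eIF1A), which binds the small subunit and promotes scanning for the start codon, measured 289, 316 and 299 CPM across the controls and 269.7, 255, 257, 272 and 268 CPM across the mutants. Every mutant library was below every control library, and the change was -0.19 ± 0.048 SE, adjusted p = 0.0176. eIF5, the GTPase-activating protein of eIF2, and eIF5B, which joins the subunits, were not called, at -0.091 ± 0.053 SE and -0.032 ± 0.043 SE. In BDGP6, 80.8% of the exon length of eIF5 overlaps CG46312 on the same strand, so its reads may come from either. Per kilobase of exon, the control level was highest for eIF-1A (175 CPM per kb) and eIF6 (159 CPM per kb).

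Neither the eIF2 subunits nor the subunits of eIF2B, the factor that exchanges its GDP for GTP, were called by edgeR in either direction. At an unadjusted p under 0.05, 1 of the 2 eIF2 genes and 3 of the 5 eIF2B genes were lower and none was higher, and DESeq2 called only eIF-2beta. eIF-2beta, the most abundant of them per kilobase (338 CPM per kb in the control), measured 359, 423 and 363 CPM across the controls and 348, 335, 329.6, 352 and 339.5 CPM across the mutants. All 5 mutant libraries lay below the control libraries, with control library 2 well above the other 2, and the change was -0.16 ± 0.063 SE (adjusted p = 0.0764), or -0.089 without control library 2. eIF-2alpha, the subunit whose phosphorylation slows initiation, was at -0.12 ± 0.065 SE (95% interval -0.27 to 0.024), or -0.042 without control library 2. Among eIF2B genes the changes ran from -0.17 for eIF2B-alpha to 0.13 for eIF2B-delta. eIF2B-delta, the most abundant of them per kilobase, measured 78.3, 91.3 and 72.4 CPM across the controls and 83.3, 93.2, 87.8, 90.8 and 87.6 CPM across the mutants, so that the genotypes overlapped. Its adjusted p was 0.185, and without control library 2 it was called higher (0.23, adjusted p = 0.00782). eIF2B-epsilon, the catalytic subunit, was at -0.086 ± 0.029 SE, adjusted p = 0.0520, and it was called lower without control library 2 (adjusted p = 0.0153) and without control library 3 (0.0376). eIF2B-alpha (adjusted p = 0.0534) was called lower without control library 3 (0.0440), and its change was -0.10 without control library 2.

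The 5 eIF3 subunits with an eIF symbol were expressed at high levels, and edgeR and DESeq2 called none of them in either direction, with 1 lower and none higher at an unadjusted p under 0.05. eIF3-S9 (eIF3b), a core subunit and the most abundant per kilobase at 444 CPM per kb in the control, measured 1158, 1305 and 1111 CPM across the controls and 1197, 1193, 1157, 1212 and 1153 CPM across the mutants. The mutant libraries fell inside the range of the control libraries, and the change was -0.011 ± 0.060 SE with a 95% interval of -0.15 to 0.13. eIF3-S8 (eIF3c) and eIF3-S10 (eIF3a), which with eIF3b form the core of the complex, were at 0.0045 ± 0.071 SE and -0.0091 ± 0.056 SE. eIF-3p66 (eIF3d1), a subunit with cap-binding activity in mammals, was at -0.15 ± 0.062 SE, adjusted p = 0.101, and without control library 3 it was called lower (adjusted p = 0.0448). The summed level of the 5 genes was 4449 ± 415 CPM in the control (SD, n = 3) and 4378 ± 120 CPM in the mutant (n = 5). Another 11 eIF3 genes stood in the table under other symbols. Of all 16, 13 were tested and 1 was called, lower (7.69%, beside 34.4% of all tested genes called and 17.5% called lower). It was Adam (eIF3j), a loosely bound subunit, with 56.6, 56.8 and 62.4 CPM across the controls and 52.4, 51.0, 51.2, 52.4 and 52.4 CPM across the mutants. Its mutant libraries were all below the control libraries (-0.17 ± 0.041 SE, adjusted p = 0.0110).

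Within the eIF4 group, which recognises and unwinds the capped end of the mRNA, 1 of 6 tested genes was called (16.7%, beside 34.4% of all tested genes). Its known role lies elsewhere: eIF4AIII is the helicase that anchors the exon junction complex on spliced mRNA. It measured 160.4, 181 and 165 CPM across the controls and 142, 139.9, 139.9, 141 and 140.0 CPM across the mutants. The mutant libraries lay close together and below every control library, and the change was -0.26 ± 0.043 SE, adjusted p = 0.00200. eIF-4a (eIF4A), the helicase of initiation, was the most abundant of the group at 967 CPM per kb in the control and measured 2213, 2755 and 2225 CPM across the controls and 2548, 2845, 2625, 2672 and 2558 CPM across the mutants. Its mutant libraries were above control libraries 1 and 3 but not all above control library 2, with a change of 0.14 ± 0.080 SE, adjusted p = 0.197. Without control library 2 it was called higher (0.25, adjusted p = 0.00383). eIF-4B, a cofactor of the helicase, was at -0.10 ± 0.083 SE.

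eIF4G, the scaffold that ties the cap-binding protein to the helicase and to eIF3, had the largest departure of control library 2 from the other controls among the members. It measured 598, 329.9 and 664 CPM across the controls and 532, 459, 519, 466 and 487 CPM across the mutants. Control library 2 was far below every other library, and the mutant libraries lay between it and the other control libraries. The change over all libraries was -0.11 ± 0.19 SE with a 95% interval of -0.55 to 0.33 (adjusted p = 0.697). Without control library 2 eIF4G was called lower (-0.36, adjusted p = 0.00614), and without control library 3 the sign turned (0.086, adjusted p = 0.756), so no direction can be given for it. Its paralog ofs (eIF4G2), which is best known for a role in the male germline, measured 98.7, 57.2 and 107 CPM across the controls and 114, 100.4, 108, 90.6 and 103 CPM across the mutants and was low in the same control library. Its change was 0.24 ± 0.18 SE over all libraries (adjusted p = 0.337) and 0.0012 without control library 2.

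Among the members, the cap-binding protein was represented almost entirely by eIF-4E (eIF4E1). It measured 347, 373 and 363 CPM across the controls and 336, 345, 348, 356 and 353 CPM across the mutants. The genotypes overlapped and the change was -0.055 ± 0.045 SE (95% interval -0.16 to 0.049). Of its paralogs in the list, eIF4E-6 had 18, 22 and 25 counts in control libraries 1 to 3 and 32, 18, 21, 26 and 16 counts in mutant libraries 1 to 5. Those counts allowed an estimate of only 0.0028 ± 0.31 SE (95% interval -0.71 to 0.71). eIF4E-4 had 0 counts in all 8 libraries, eIF4E-3 and eIF4E-7 had 0 counts in all 3 control libraries, and eIF4E-5 had at most 4 counts in a library. At this depth nothing can be said of a difference in these 4 genes.

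The largest difference among all members was in an elongation factor. Ef1alpha100E (eEF1alpha2), the minor of 2 fly genes for eEF1A, measured 19.4, 39.2 and 26.7 CPM across the controls and 80.0, 78.3, 67.6, 44.8 and 74.5 CPM across the mutants. Every mutant library was above every control library, mutant library 4 was the lowest of its group and control library 2 the highest of its own. The means were 28.4 CPM (SD 10.01, n = 3) against 69.0 CPM (SD 14.4, n = 5), a 2.43-fold change (1.28 ± 0.25 SE, adjusted p = 0.00536, 95% interval 0.70 to 1.86). The call held in all 16 alternative settings, with a log2 change of 1.07 to 1.58 and an adjusted p of at most 0.0257.

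Ef1alpha48D (eEF1alpha1), the major gene for the same protein, took 2.16% to 2.64% of all counts of a control library and 2.41% to 2.62% of a mutant library, the highest level of any member at 9734 CPM per kb in the control. It measured 23573, 27332 and 21047 CPM across the controls and 24291, 26522, 23966, 24946 and 24285 CPM across the mutants. The genotypes overlapped, with control library 2 above every other library, and the change was 0.048 ± 0.077 SE (95% interval -0.13 to 0.22, adjusted p = 0.657). Without control library 2 the change was 0.147 (adjusted p = 0.0542). Of the summed level of both genes per kilobase, Ef1alpha100E made up 0.0762%, 0.133% and 0.118% in control libraries 1 to 3 and 0.304%, 0.273%, 0.261%, 0.166% and 0.284% in mutant libraries 1 to 5. The share was higher in every mutant library, yet it stayed under 1% in all 8. The paralogs encode closely similar proteins, the counts came from reads assigned uniquely, and reads of the major gene given to the minor one were not tested for.

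**Figure D2:**
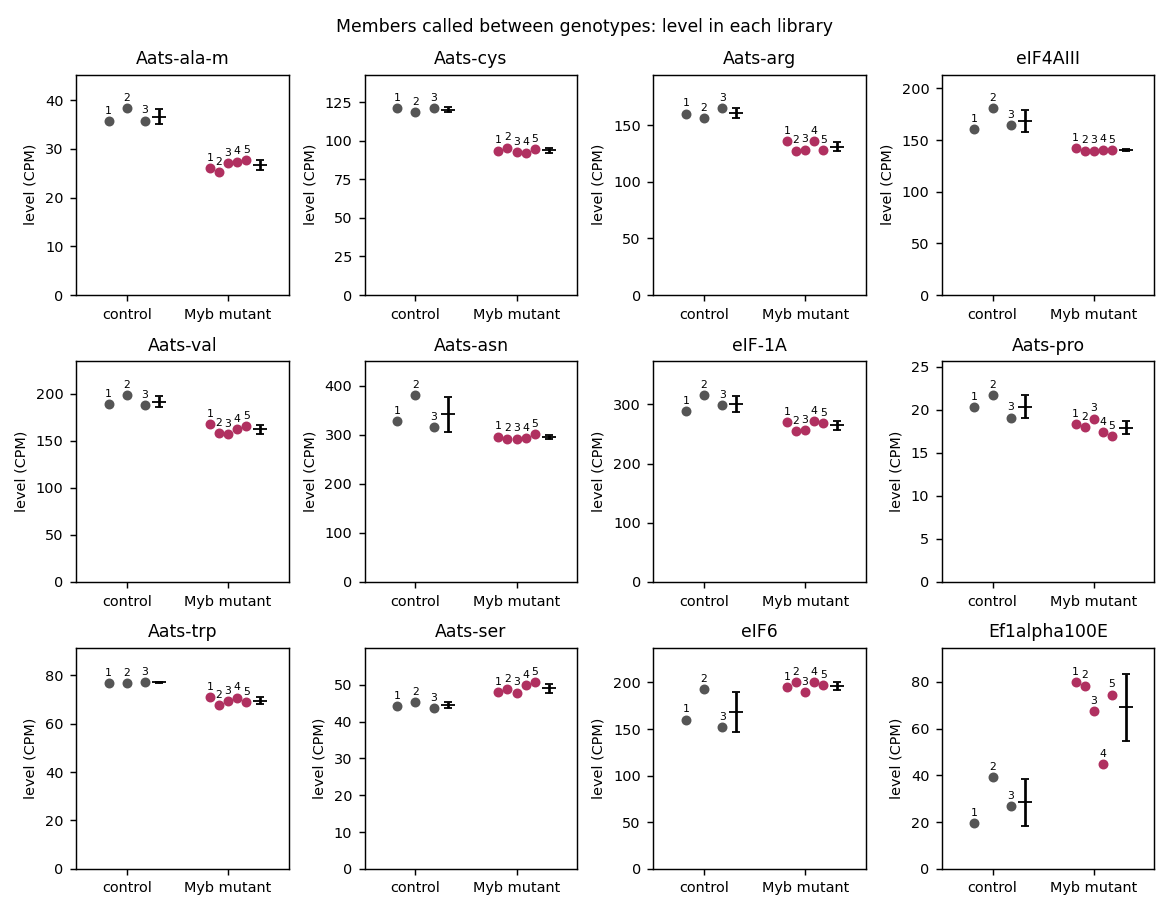
Level in each library of the 12 called members (CPM, each axis from 0; numbered points are the control libraries in grey and the Myb mutant libraries in red, and the bar beside them is the mean with its SD). Only in Ef1alpha100E is the difference between the genotype means large against the level itself, while in eIF6 control library 2 reaches the mutant libraries.

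The other 4 elongation members were not called over all libraries. Ef2b (eEF2), which moves the ribosome by one codon, measured 7604, 9111 and 7226 CPM across the controls and 7851, 8157, 7681, 7989 and 7591 CPM across the mutants. The mutant libraries lay within the range of the control libraries and the change was -0.023 ± 0.072 SE (95% interval -0.19 to 0.14). Without control library 2 the sign turned, to 0.077 (adjusted p = 0.0911). Ef1beta and Ef1gamma, subunits of the exchange factor that reloads eEF1A, were at 0.013 ± 0.10 SE and 0.054 ± 0.093 SE. Both were highest in control library 2, and without it both were called higher (0.16, adjusted p = 0.0374, and 0.19, adjusted p = 0.0152). The delta subunit, listed as eEF1delta, was called lower. It measured 404, 444 and 402 CPM across the controls and 373, 335, 344, 373 and 359.8 CPM across the mutants, with every mutant library below the control libraries (-0.22 ± 0.059 SE, adjusted p = 0.0183), although the call was lost without mutant library 5 (adjusted p = 0.0504). eIF-5A (eEF5), which relieves ribosomes stalled at runs of proline, measured 996, 1137 and 1018 CPM across the controls and 937, 962, 929.7, 988 and 932 CPM across the mutants. Its libraries did not overlap between genotypes, but the change of -0.15 ± 0.057 SE was not called (adjusted p = 0.0778), whereas DESeq2 called it lower (adjusted p = 0.0279).

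The cytosolic aminoacyl-tRNA synthetases held most of the lower calls. Of 15 with an Aats symbol, 5 were called lower (33.3%, beside 17.5% of all tested genes) and 0 higher by edgeR. The 33.3% called in either direction was near the 34.4% of all tested genes. The median change of the 15 was -0.097, and 10 of the 15 changes were negative. At an unadjusted p under 0.05, 6 of the 15 were lower and 0 higher, and DESeq2 called 6 lower and 0 higher, Aats-gly being the addition in the latter (edgeR adjusted p = 0.0614). Aats-cys (cysteinyl-tRNA synthetase) had the largest change of the class. It measured 121, 118 and 121 CPM across the controls and 93.6, 95.5, 92.5, 92.3 and 94.8 CPM across the mutants. The libraries of each genotype lay within a few CPM of each other and far from the other genotype, and the means were 120.2 CPM (SD 1.53, n = 3) against 93.8 CPM (SD 1.41, n = 5) (-0.36 ± 0.029 SE, adjusted p = 3.2e-05). Aats-arg measured 160.3, 156 and 165 CPM across the controls and 136, 128, 129, 136 and 128 CPM across the mutants. It was lower in every mutant library (-0.29 ± 0.039 SE, adjusted p = 6.9e-04). Both calls held in all 16 alternative settings.

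The other 3 lower calls of the class were named after their values were seen. Aats-val measured 189, 199 and 188 CPM across the controls and 168, 159, 157, 162 and 166 CPM across the mutants, again without overlap (-0.24 ± 0.040 SE, adjusted p = 0.00221). Aats-trp measured 77.0, 77.0 and 77.3 CPM across the controls and 71.0, 67.8, 69.2, 70.9 and 68.8 CPM across the mutants. Here the control libraries were nearly equal and a change of -0.15 ± 0.029 SE passed the test (adjusted p = 0.00522), but not with the libraries summed by described biological replicate (0.118). Aats-asn measured 328, 381 and 315 CPM across the controls and 296, 292, 292, 294 and 301 CPM across the mutants. Its change of -0.21 ± 0.064 SE (adjusted p = 0.0331) moved when control library 2 was left out, to -0.13 (adjusted p = 0.0170), and the call was lost without any one of the mutant libraries (adjusted p = 0.0596 to 0.0744).

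The other 10 synthetases of the class were not called. Aats-ala, the most abundant per kilobase at 194 CPM per kb in the control, measured 646, 649.8 and 614 CPM across the controls and 655, 648, 622, 661 and 658 CPM across the mutants. The genotypes overlapped at 0.027 ± 0.046 SE (95% interval -0.079 to 0.13). Aats-ile and Aats-thr were at 0.0021 ± 0.063 SE and -0.0092 ± 0.052 SE. Aats-his, the least abundant per kilobase at 34.7 CPM per kb, was at -0.090 ± 0.042 SE, adjusted p = 0.127. Aats-gly measured 482, 523 and 469 CPM across the controls and 459, 438, 429.8, 456 and 438 CPM across the mutants, with all mutant libraries below the control libraries, and was called lower without control library 3 (adjusted p = 0.0441). Summed over the 15 genes, the level was 4593 ± 178 CPM in the control (SD, n = 3) and 4409 ± 71.2 CPM in the mutant (n = 5). In BDGP6 an antisense RNA covers 63.9% of the exon length of Aats-asp, and since the use of strand in counting was not stated, its reads could not be told apart from those of the synthetase.

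With the cytosolic synthetases listed under other symbols, 8 of 20 were called lower and 0 higher by edgeR, with a median of -0.13. Of all tested genes, 34.4% were called by edgeR in either direction and 17.5% were called lower. DESeq2 called 10 of the 20 lower and 0 higher, beside 1720 lower and 1772 higher of the 12526 genes it covered. CG5706 and CG2263 encode the beta and alpha subunits of phenylalanyl-tRNA synthetase. The former measured 151, 175 and 153 CPM across the controls and 127, 129.8, 132, 130.2 and 128 CPM across the mutants and the latter 195, 223 and 187 CPM across the controls and 167, 171, 163, 168 and 175 CPM across the mutants. Both were lower in every mutant library (-0.30 ± 0.051 SE, adjusted p = 0.00214, and -0.26 ± 0.059 SE, adjusted p = 0.0101), and the call of CG5706 held in all 16 alternative settings. CG15100, the methionyl-tRNA synthetase, measured 205, 203 and 197 CPM across the controls and 185, 181, 177, 184 and 179.5 CPM across the mutants, also without overlap (-0.15 ± 0.036 SE, adjusted p = 0.0111). The 3 proteins AIMP1 to AIMP3, which hold synthetases in a complex in mammals, were looked at beside them. AIMP2 (CG12304) measured 80.0, 89.1 and 78.7 CPM across the controls and 69.2, 64.5, 65.5, 68.3 and 64.4 CPM across the mutants and was called lower (-0.31 ± 0.049 SE, adjusted p = 0.00144). AIMP1 (CG8235) was at -0.24 ± 0.083 SE, adjusted p = 0.0548, and AIMP3 (CG30185) at -0.15 ± 0.073 SE, adjusted p = 0.156. AIMP1 was called lower once control library 1, 2 or 3 was left out (adjusted p = 0.0339 to 0.0440), at -0.31, -0.11 and -0.29 in that order.

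The 6 mitochondrial synthetases with an Aats symbol were expressed at a lower level, from 4.36 CPM per kb for Aats-met (MetRS-m) to 20.8 CPM per kb for Aats-phe (PheRS-m) in the control. Aats-phe measured 29.1, 36.0 and 30.1 CPM across the controls and 28.8, 31.5, 30.2, 29.5 and 29.9 CPM across the mutants, with overlap between genotypes (-0.081 ± 0.071 SE). Aats-ala-m, the mitochondrial alanyl-tRNA synthetase, had the largest lower change of all members. It measured 35.7, 38.4 and 35.8 CPM across the controls and 26.0, 25.3, 27.1, 27.4 and 27.7 CPM across the mutants. Every mutant library was well below the control libraries, and the means were 36.6 CPM (SD 1.49, n = 3) against 26.7 CPM (SD 1.02, n = 5) (-0.46 ± 0.048 SE, adjusted p = 1.6e-04). The call held in all 16 alternative settings. Its cytosolic counterpart Aats-ala, given above, was not called. Aats-pro (ProRS-m) measured 20.3, 21.7 and 19.1 CPM across the controls and 18.3, 18.0, 19.0, 17.4 and 16.9 CPM across the mutants. Mutant library 3 nearly reached control library 3, and the call, at -0.18 ± 0.057 SE, adjusted p = 0.0375, was lost when mutant library 1, 2, 4 or 5 was left out (adjusted p = 0.0616 to 0.0998), and likewise control library 1 (0.0876) or control library 2 (0.0906). Aats-ser (SerRS-m) went against these and measured 44.2, 45.3 and 43.7 CPM across the controls and 48.0, 48.8, 47.9, 49.9 and 50.8 CPM across the mutants. It was higher in every mutant library by a small amount (0.14 ± 0.037 SE, adjusted p = 0.0164). This call was lost without mutant library 2, 4 or 5 (adjusted p = 0.0521 to 0.0573), without control library 1 (0.0551) and without control library 3 (0.0574). Aats-leu (LeuRS-m) was at -0.040 ± 0.040 SE and Aats-met at 0.11 ± 0.068 SE. With those under other symbols, 2 of 15 mitochondrial synthetases were called higher and 3 lower, together 33.3%, beside 34.4% of all tested genes. The additions were CG7441 (TrpRS-m), with 34.7, 34.0 and 37.1 CPM across the controls and 39.9, 40.1, 39.1, 42.1 and 39.7 CPM across the mutants (0.19 ± 0.046 SE, adjusted p = 0.0133), and CG10092 (ArgRS-m), with 18.0, 18.8 and 19.0 CPM across the controls and 17.2, 16.0, 17.4, 16.8 and 16.4 CPM across the mutants (-0.15 ± 0.046 SE, adjusted p = 0.0330). CG7441 was higher and CG10092 lower in every mutant library, but neither call held throughout: the former lost its call without control library 1 (adjusted p = 0.0541), the latter without mutant library 1, 2 or 5 (0.0517 to 0.0892) and without control library 2 or 3 (0.0551 to 0.0923).

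Among the controls, library 2 differed most from its group. Its log2 level minus the mean of control libraries 1 and 3 ran from -0.93 for eIF4G to 0.77 for Ef1alpha100E over the members, with a median absolute departure of 0.20, where the same measure for each of the other 7 libraries against the rest of its group was 0.026 to 0.11. The departure was related to exon length in BDGP6: Spearman's rho was -0.43 over the 49 tested members and -0.55 over 8895 tested genes with a length. Long transcripts tended to be low in control library 2 and short ones high. For control libraries 1 and 3, set against a rest that includes library 2, rho was 0.62 and 0.275 over the members. Over all tested genes it was 0.44 and 0.45. In the mutant libraries rho ran from -0.15 to 0.36 over the members and from -0.29 to 0.205 over all tested genes. The log2 change between the genotypes had a rho with length of 0.19 over the members and -0.012 once control library 2 was left out, and of 0.29 and 0.11 over all tested genes. These are descriptions across genes of the same libraries, which are not independent replicates. Without control library 2, 7 members were called higher and 10 lower in place of 3 and 9, and 11 of the 12 calls remained, Aats-pro being the one lost. Calls over all genes rose as well, to 1702 higher and 1758 lower of 9225 tested, in place of 1534 and 1587 of 9076. The members gained were Ef1beta, Ef1gamma, eIF-4a and eIF2B-delta as higher and eIF4G and eIF2B-epsilon as lower. Of the other translation genes described below, 13 were then higher and 16 lower in place of 8 and 12. Not all of those gained are named here. With the libraries summed by described biological replicate, 2 members were higher and 7 lower, and Aats-trp, Aats-pro and Aats-ser lost their calls (adjusted p = 0.118 to 0.164) at log2 changes of -0.15, -0.18 and 0.12. That setting sets 1 control sum against 2 mutant sums, so it tests with fewer samples.

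**Figure D3:**
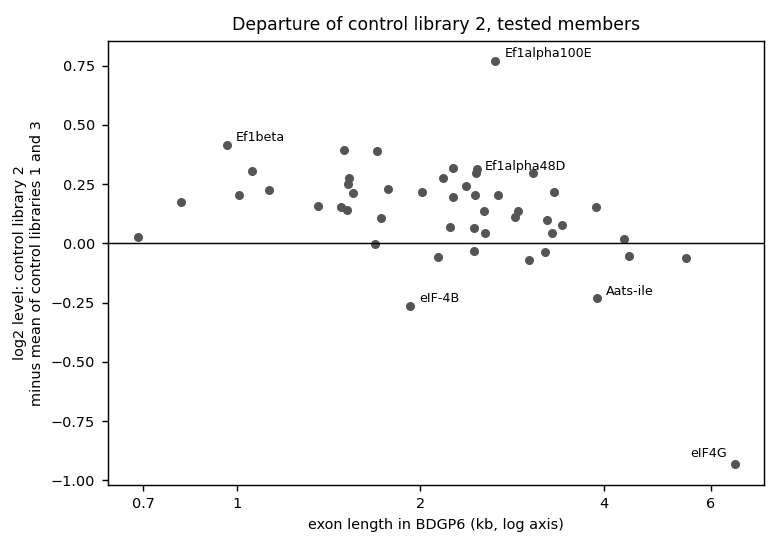
Departure of control library 2 from the mean of control libraries 1 and 3 (log2 level, vertical) against exon length (kb, log axis) for the 49 tested members, one point each. The points fall with length, from shorter genes such as Ef1beta above 0 to eIF4G at -0.93, and Ef1alpha100E lies above the others of its length at 0.77.

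Genes of the same pathway outside the name rule gave a further 67 rows, of which 63 were tested. Of these, 8 were called higher and 12 lower, together 31.7%, beside 34.4% of all tested genes. They included 15 tested factors under other symbols, with 4 lower (26.7%, beside 17.5% of all tested genes) and 0 higher by edgeR. DESeq2 and an unadjusted p under 0.05 gave the same counts for these factors. EfSec (eEFSec), the elongation factor for selenocysteine, had the largest change among these and measured 13.6, 15.8 and 14.6 CPM across the controls and 11.8, 10.5, 11.6, 11.01 and 11.1 CPM across the mutants. It did not overlap between genotypes (-0.39 ± 0.064 SE, adjusted p = 0.00206). CG17737 (eIF1), which guards start codon choice, measured 176, 210.0 and 179 CPM across the controls and 166, 158, 159.7, 160.1 and 155 CPM across the mutants and was lower in every mutant library (-0.24 ± 0.060 SE, adjusted p = 0.0163), with the call lost without mutant library 5 (adjusted p = 0.0534) and a change of -0.16 without control library 2. The remaining lower calls were eEF1delta and Adam, given above.

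Of 9 mitochondrial translation factors, 2 were called lower (22.2%, beside 17.5% of all tested genes) and 0 higher by edgeR. DESeq2 and an unadjusted p under 0.05 gave the same counts. CG4567 (mEFG1), which moves the mitochondrial ribosome, measured 51.5, 43.4 and 47.7 CPM across the controls and 38.1, 37.2, 39.0, 36.3 and 37.8 CPM across the mutants. CG5705 (mRF1), the mitochondrial release factor, measured 17.1, 18.5 and 17.8 CPM across the controls and 16.7, 14.8, 14.5, 15.0 and 14.5 CPM across the mutants. Both were lower in every mutant library (-0.33 ± 0.057 SE, adjusted p = 0.00242, and -0.24 ± 0.058 SE, adjusted p = 0.0137). Of 5 genes of termination and ribosome rescue, 1 was called lower (20.0%, beside 17.5% of all tested genes) and 0 higher by edgeR. The gene was eRF1, which reads stop codons. It measured 229, 246 and 231 CPM across the controls and 217, 213, 209, 205 and 207 CPM across the mutants (-0.16 ± 0.043 SE, adjusted p = 0.0178), without overlap, and the call was lost without mutant library 5 (adjusted p = 0.0614). Its partner Elf (eRF3) was at -0.090 ± 0.056 SE, adjusted p = 0.246, and was called lower without control library 2 (adjusted p = 0.00682).

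Of 8 tested regulators of cap and poly(A) binding, 3 were called higher and 0 lower, a share of 37.5% beside the 34.4% of all tested genes called, and no change was negative (DESeq2 called 4 higher and 0 lower, and 4 were higher and 0 lower at an unadjusted p under 0.05). cup, which binds eIF4E and represses bound mRNAs in the ovary, measured 27.7, 27.9 and 29.9 CPM across the controls and 51.3, 51.2, 55.1, 56.0 and 46.3 CPM across the mutants. The mutant libraries were well above the control libraries (0.87 ± 0.068 SE, adjusted p = 2.9e-05). In BDGP6 the whole exon length of cup (100%) lies in CG34310 on the same strand, so the reads belong to either annotation. Lk6, the kinase that phosphorylates eIF4E, measured 696, 578 and 704 CPM across the controls and 879.6, 1019, 945, 878 and 917 CPM across the mutants and was higher in every mutant library (0.49 ± 0.083 SE, adjusted p = 0.00219). CG2950 (mxt), an eIF4E-binding protein, measured 24.2, 22.3 and 24.1 CPM across the controls and 28.1, 30.9, 32.2, 25.3 and 29.5 CPM across the mutants (0.31 ± 0.079 SE, adjusted p = 0.0157). It was higher in every mutant library, but the call was lost without control library 2 (adjusted p = 0.0523). Thor, the fly 4E-BP, which holds eIF4E away from eIF4G, measured 14.1, 11.4 and 22.9 CPM across the controls and 20.4, 19.1, 12.9, 18.5 and 12.5 CPM across the mutants. These values overlapped widely and allowed no call (0.049 ± 0.25 SE, 95% interval -0.52 to 0.62). pAbp, the poly(A)-binding protein, was at 0.20 ± 0.083 SE, adjusted p = 0.0905 (DESeq2 adjusted p = 0.0480), and at 0.10 without control library 2.

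The stress response list held 6 genes: eIF2alpha kinases, transcription factors of the same response and PPP1R15, a partner of the eIF2alpha phosphatase. Of these 6, edgeR called 4 higher and 0 lower. That was 66.7%, beside 34.4% of all tested genes called and 16.9% called higher. The list was chosen with earlier results of these data known, so this share is a description only. DESeq2 and an unadjusted p under 0.05 each gave 5 higher and 0 lower. CG6272 (Irbp18), a C/EBP-type leucine zipper protein that pairs with Xrp1, measured 9.71, 10.6 and 11.4 CPM across the controls and 20.8, 18.6, 19.0, 20.3 and 20.2 CPM across the mutants. CG17836 (Xrp1), a stress-induced zipper protein known from cells with impaired ribosomes, measured 414, 417 and 389 CPM across the controls and 656, 764, 669, 682 and 662 CPM across the mutants. Both were far apart between genotypes (0.90 ± 0.066 SE, adjusted p = 1.8e-05, and 0.76 ± 0.065 SE, adjusted p = 4.9e-05), and both calls held in all 16 alternative settings. crc (ATF4), whose translation rises when eIF2alpha is phosphorylated, measured 1157, 1296 and 1199 CPM across the controls and 1459, 1505, 1439.6, 1547 and 1486 CPM across the mutants. It was higher in every mutant library (0.29 ± 0.053 SE, adjusted p = 0.00350), and CG46314 overlaps 73.5% of its exon length on the same strand. The kinase PEK measured 249, 215 and 255 CPM across the controls and 287, 273, 291, 263 and 275 CPM across the mutants (0.21 ± 0.066 SE, adjusted p = 0.0377). Its mutant libraries were all above the control libraries, yet the call was lost without mutant library 1, 2, 3 or 5 (adjusted p = 0.0605 to 0.0832) or control library 1 or 2 (0.0556 to 0.0570), and without control library 2 the change was 0.13. The kinase Gcn2 was at 0.21 ± 0.074 SE, adjusted p = 0.0613, and was called higher once any one of the control libraries was left out (adjusted p = 0.0436 to 0.0485), but its change was only 0.099 without control library 2 against 0.26 without either of the others. PPP1R15 (CG3825), which directs the phosphatase to eIF2alpha, was at 0.028 ± 0.048 SE.

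Growth control was covered by 3 genes, of which edgeR called 0 higher and 0 lower, with 1 higher at an unadjusted p under 0.05 and 1 higher by DESeq2. That gene was dm (Myc), the transcription factor that drives ribosome and translation genes. It measured 197, 84.2 and 209 CPM across the controls and 254, 256, 260.4, 238 and 246 CPM across the mutants. The mutant libraries were all above the control libraries, control library 2 was far below its group, and the change was 0.62 ± 0.25 SE, adjusted p = 0.0882. Without control library 2 dm was called higher, at 0.30 (adjusted p = 0.00212). In BDGP6, 40.9% of its exon length overlaps CG12535 on the opposite strand. Tor and S6k were at 0.056 ± 0.097 SE and 0.080 ± 0.13 SE.

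The proteins of the ribosome gave a scale for these changes. Of 82 tested cytosolic ribosomal protein genes, 4 were called (4.88%), 2 higher and 2 lower, with a median log2 change of 0.014. The 4 were named after their values were seen. RpS5b (1.10) and RpL22-like (1.19) were higher, and RpS19b (-1.21) and RpS15Ab (-0.25) lower, and each is a paralog of a more widely used ribosomal protein gene. Of 72 mitochondrial ribosomal protein genes, 26 were called lower and 1, mRpL20 (0.39), higher, together 37.5%, beside 34.4% of all tested genes (17.5% lower), with a median of -0.15. Beside these, 33.3% of the 15 cytosolic synthetases, 3 of the 6 mitochondrial synthetases and 13.6% of the 22 initiation factors of the name rule were called. The differences between these shares were not tested. With the libraries summed by described biological replicate, these other translation genes lost their calls: EfSec, eEF1delta, Adam, CG15100, CG7441, CG10092, CG12304, CG5705, eRF1, CG2950, crc and PEK (adjusted p = 0.0519 to 0.281). Each kept its sign, with log2 changes from -0.37 for EfSec to 0.28 for CG2950, and dm gained a call (0.61, adjusted p = 0.00994).

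**Figure D4:**
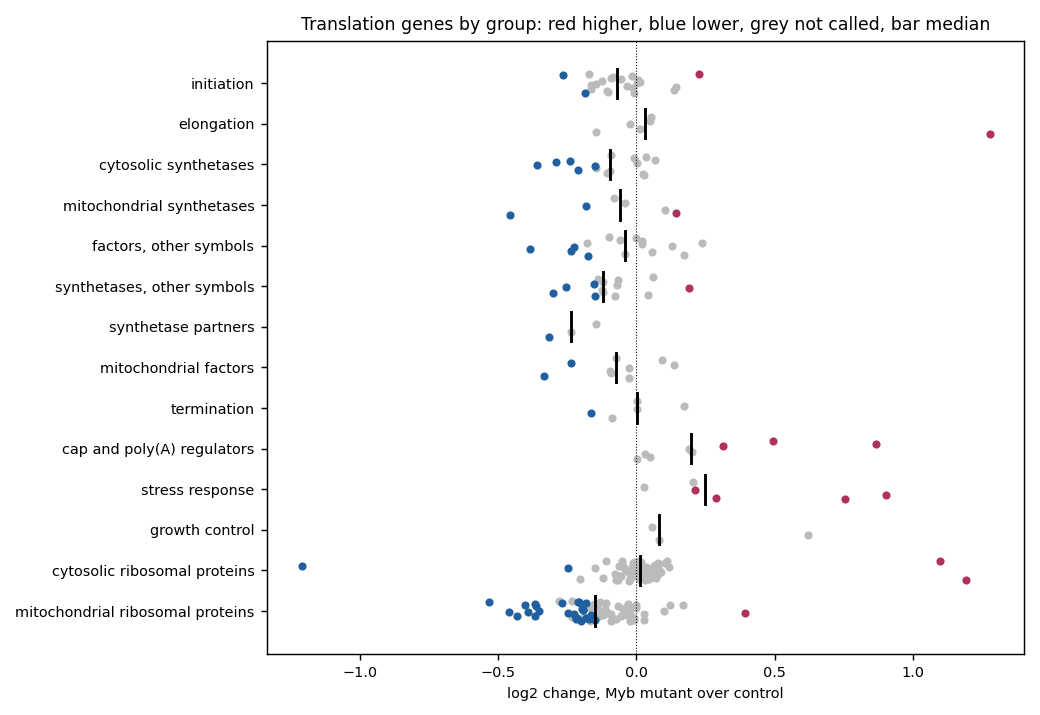
Log2 change of Myb mutant over control for translation genes by group, one point per tested gene (red called higher, blue called lower, grey not called), with a bar at the median of each group. The cytosolic ribosomal proteins lie close to 0 with a median of 0.014, the mitochondrial ribosomal proteins are shifted to a median of -0.15, and the called genes among regulators and stress response genes are all on the higher side.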

How the data were processed

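RNA-seq read counts per gene were used for 8 wing disc libraries, 3 from yw67 controls and 5 from Myb mutants. The authors trimmed reads with Trimmomatic (version 0.22 per the labels), mapped them to exons of the dmel r5.7 gene set with Bowtie2 version 2.1.0, and summed unique eXpress counts per exon to genes. The deposited counts were raw, and whether counting used strand is not given in the sources used here. The deposited columns of the authors' own DESeq2 result (log2 fold change, p-value and adjusted p) were not used. A row of mitochondrial reads (0.574% to 1.34% of counts) was left out before scaling. Of the members, 48 were matched to BDGP6 by identifier and 5 by symbol. That annotation is not the mapped build and served only for names, exon lengths and overlaps. Called genes that overlap another gene on the opposite strand included Aats-ser (13.95% of exon length), CG10092 (11.8%), CG4567 (17.1%) and CG6272 (15.5%). With the use of strand unknown, reads of such stretches could not be told apart.

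Counts were fitted with edgeR 4.0.16 in R 4.3.3: filterByExpr on genotype, TMM, and the quasi-likelihood test on genotype alone, using all 8 libraries. A gene was called at an adjusted p under 0.05 (Benjamini-Hochberg over all 9076 tested genes). To obtain the SE, the absolute log2 change was divided by the root of the F statistic, and the 95% interval uses the degrees of freedom of that test. DESeq2 1.42.0 was an alternative. The code was tested on simulated data.

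Members were described by role. Values in every library were given for called members with an absolute log2 change of at least 0.5, for the most abundant and the most changed called member of each role, for calls against the majority of their role, for paralogs of eIF4E, eIF4G and Ef1alpha, and for the 3 most changed called genes of each other list. The remaining called members, and those whose call changed when a library was left out, were added after their values were seen. The members and lists were chosen with earlier results of these data known. Promoter motifs and protein sequences were not analysed here. Counts below a few reads carry counting error, and totals of 50562199 to 65322440 counts per library set the precision.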

Additional observations from a re-analysis of the deposited data

Results flagged for a closer look

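In 4 of the 78 genes examined, 1 mutant library lay apart from the other 4, its gap to the nearest of them being over 0.71 of the whole range of the group. Chance alone marks about 1 in 20 groups, and no such check was made among the 3 control libraries. Mutant library 2 had the lowest eIF-4B at 213 CPM, where the others were at 239.8 to 249 CPM. The same library had the highest Aats-tyr at 164 CPM, beside 151 to 155 CPM, and the highest CG17836 (Xrp1) at 764 CPM, beside 656 to 682 CPM. Mutant library 1 had the highest CG5705 (mRF1) at 16.7 CPM, beside 14.5 to 15.0 CPM.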

How the results depend on the processing

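The 16 alternatives were DESeq2, RLE and upper-quartile scaling, no filter, a minimum mean of 1 CPM, each of the 8 libraries left out, libraries summed by described biological replicate (1 control sum against 2 mutant sums, so that the lone control sum is assumed to vary like the mutant sums), the sample number as a replicate block, and ribosomal protein genes left out before scaling. Leaving out 1 library at a time gave 1 to 7 members called higher and 7 to 13 lower, and 7 to 13 other translation genes higher and 8 to 16 lower. Of the 8989 to 9225 genes then tested, 1183 to 1702 were higher and 1191 to 1758 lower. The median change of the members was -0.087 to -0.040. The median was -0.072 with no filter. With summed libraries it was -0.081, with 5 other translation genes higher and 4 lower and 1510 of all tested genes called in place of 3121. Deviations from the group mean had r = 0.32, -0.11 and 0.008 between same-numbered libraries. Between libraries of unlike number r ran from -0.43 to 0.45, so pairing by number was not shown. With the replicate block 1 member was higher and 3 lower, 4 other translation genes higher and 3 lower, the median was -0.029 and 1397 of all genes were called. Calls of eIF-1A, eIF4AIII, Aats-val, CG2263 and Lk6 were lost under that block and in no other setting. DESeq2 gave 3 members higher and 12 lower, including all 12 of edgeR. Over the 73 genes followed singly and all alternatives, 1010 values kept direction and side of the threshold, 80 lost the call, 29 gained one and 48 changed sign, in genes not called over all libraries. Signs changed with upper-quartile scaling (-0.0063 for eIF4E-6, -0.0067 for eIF3-S8 and -0.0065 for Aats-ile), with no filter (-0.012 for eIF4E-6, -0.0046 for eIF2B-beta, -0.0059 for Ef1beta, -0.013 for eIF3-S8 and -0.013 for Aats-ile), with summed libraries (-0.011 for eIF2B-beta, -0.018 for Ef1beta, -0.040 for eIF3-S8 and -0.013 for Aats-ile), with the replicate block (-0.0013 for eIF3-S8, 0.0075 for eIF-3p40 and -0.0057 for Aats-ile) and with 1 library left out, where the ranges of the log2 change were Aats-ile -0.077 to 0.042, Aats-phe -0.14 to 0.013, Aats-thr -0.048 to 0.033, CG3825 -0.017 to 0.067, Ef1alpha48D -0.037 to 0.15, Ef1beta -0.086 to 0.16, Ef1gamma -0.041 to 0.19, Ef2b -0.089 to 0.077, Thor -0.15 to 0.39, eIF-3p40 -0.10 to 0.12, eIF2B-beta -0.024 to 0.062, eIF3-S10 -0.059 to 0.037, eIF3-S8 -0.052 to 0.074, eIF3-S9 -0.059 to 0.054, eIF4E-6 -0.17 to 0.13, eIF4G -0.36 to 0.086. The cause of these shifts was not tested. Depth limits eIF4E-3 to eIF4E-7, with at most 32 counts in a library.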
